A study of Mus musculus with 16 samples.

Results

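Apob, Mttp, Apoa1, Apoa4, Apoe, Pltp, Lcat and Lipc are 8 genes of lipoprotein assembly and plasma remodelling. They were chosen by gene symbol, as the probes that the platform annotation assigned to these names, and each had 1 probe. They are 8 of 20551 features with a gene symbol, and of 36824 features in all. Liver RNA of male mice on a chow diet was measured on 2-colour arrays in 8 Lpl+/- and 8 wild type mice. The Lpl+/- mice carry a targeted Lpl allele on 1 chromosome copy. A pool of RNA from 9 wild type control livers served as the common comparison for every mouse. The sources used here give no age, no strain and no design of the targeted allele. Each mouse is its own animal, and biological and technical spread cannot be told apart.

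Apolipoprotein B is the structural protein of very low density lipoprotein (VLDL), and the microsomal triglyceride transfer protein loads it with lipid in the endoplasmic reticulum. Apolipoproteins A-I and A-IV are carried largely on high density lipoprotein (HDL), and apolipoprotein E is a ligand for hepatic uptake of remnants. In plasma, phospholipid transfer protein, lecithin-cholesterol acyltransferase and hepatic lipase remodel the particles, while lipoprotein lipase, the product of Lpl, hydrolyses their triglycerides in peripheral tissues.

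Values are log ratios of a mouse over the pool, so 0 means a level equal to the pool. The base is taken as log10 and the direction as mouse over pool, which is likely but not stated. Since every value is a ratio to liver RNA, the arrays give no level that could be set between genes, and the presence of a cell type cannot be checked from them. A mixture with fewer cells of a type and one with less RNA per cell cannot be told apart. Array medians lay between -0.0045 and 0.0072. Lpl itself was lower in every Lpl+/- mouse than in every wild type mouse, at -0.387 ± 0.142 in Lpl+/- and -0.00897 ± 0.0459 in wild type livers (SD, n = 8 each; 0.419-fold, limma adjusted p = 0.0158), but this gene was among the grounds for reading the ratio as mouse over pool. The call for Lpl was lost without Lpl+/- 2 or without wild type 8 (limma adjusted p = 0.0577 and 0.0526), where the difference was -0.367 and -0.378, against -0.378 with all mice. Of 120 pairs of arrays, 1 correlated below -0.3 over all probes, wild type 5 with wild type 8 (r = -0.352), so their direction is not settled and the main results were repeated with either sign turned.

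Apoa1, Apoa4 and Lipc all lie on mouse chromosome 9. Apoa1, Apoc3, Apoa4 and Apoa5 follow each other there in the RefSeq gene order, and Apoe is next to Apoc1, Apoc4 and Apoc2 on chromosome 7. Apoa4 and Lipc had the r farthest from 0 among the 28 pairs of the 8 genes. Apoa1 neighbours Apoa4 and had the smallest unadjusted limma p between genotypes. For these genes a sequence of the 250 bases before the outermost RefSeq start (GRCm38.p6) is printed. Each reads 5′ to 3′ on the strand of its gene, and capitals mark matches to the motifs named after the sequences. No build is named for the array itself in the sources used here.
Apoa4, chr9:46240594-46240843, plus strand: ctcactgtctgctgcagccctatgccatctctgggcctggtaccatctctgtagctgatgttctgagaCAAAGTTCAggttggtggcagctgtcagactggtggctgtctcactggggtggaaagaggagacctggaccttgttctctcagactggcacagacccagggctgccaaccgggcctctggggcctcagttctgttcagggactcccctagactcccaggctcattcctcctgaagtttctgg
Lipc, chr9:70952222-70952471, minus strand: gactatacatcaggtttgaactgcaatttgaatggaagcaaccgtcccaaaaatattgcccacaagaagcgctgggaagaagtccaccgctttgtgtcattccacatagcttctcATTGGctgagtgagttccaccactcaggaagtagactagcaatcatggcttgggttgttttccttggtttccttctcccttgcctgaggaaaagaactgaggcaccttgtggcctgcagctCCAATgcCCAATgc
Apoa1, chr9:46228380-46228629, plus strand: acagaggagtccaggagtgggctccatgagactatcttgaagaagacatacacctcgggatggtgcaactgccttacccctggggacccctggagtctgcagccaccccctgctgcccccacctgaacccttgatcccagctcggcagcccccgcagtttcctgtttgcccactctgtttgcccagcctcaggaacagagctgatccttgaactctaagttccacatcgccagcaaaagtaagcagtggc
Motifs were searched on both strands, with TATAAA as the start-site box, CCAAT as the box of that name, TTCNNNGAA for STAT factors, CACGTG as the E-box and CAAAGNNCA for the factor HNF4. The marked matches do not overlap each other. The Apoa4 window held CAAAGTTCA at positions -182 to -174 from the start, a form of the HNF4 motif that 5.49% of 32851 windows of this length held. The Lipc window held CCAAT at -14 to -10 and at -7 to -3, and its reverse complement at -135 to -131. The window of another Lipc start, not printed, held the HNF4 motif in reverse complement at -76 to -68. It also held that of CCAAT at -177 to -173. Among the other windows not printed, that of Apob held the HNF4 motif too, in reverse complement at -103 to -95. TATAAA stood in windows of Apob and Apoe, as in 12.4% of all windows, and CCAAT in windows of Pltp and Lcat. CCAAT stood in 33.8% of all windows. The Apoa1 window matched none of the motifs. A match is only a description of these letters.

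Of the 8 genes, 0 passed the limma test between Lpl+/- and wild type livers at an adjusted p under 0.05, beside 6 of all 36824 features, or 0.0163%. Apoa1 and Pltp, 2 of the 8, had an unadjusted limma p under 0.05, both with the lower mean in Lpl+/- livers, while 5.6% of all features reached this level and 3.38% reached it with the lower mean. Apob had the largest difference upward, 0.11, and Pltp the largest downward, -0.13. The groups overlapped for all 8 genes, as they did for all but 0.038% of features. The means of 3 genes were higher and those of 5 lower in Lpl+/- livers. The median difference over the 8 was -0.00586, against 0.000531 over all features.

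**Figure D1:**
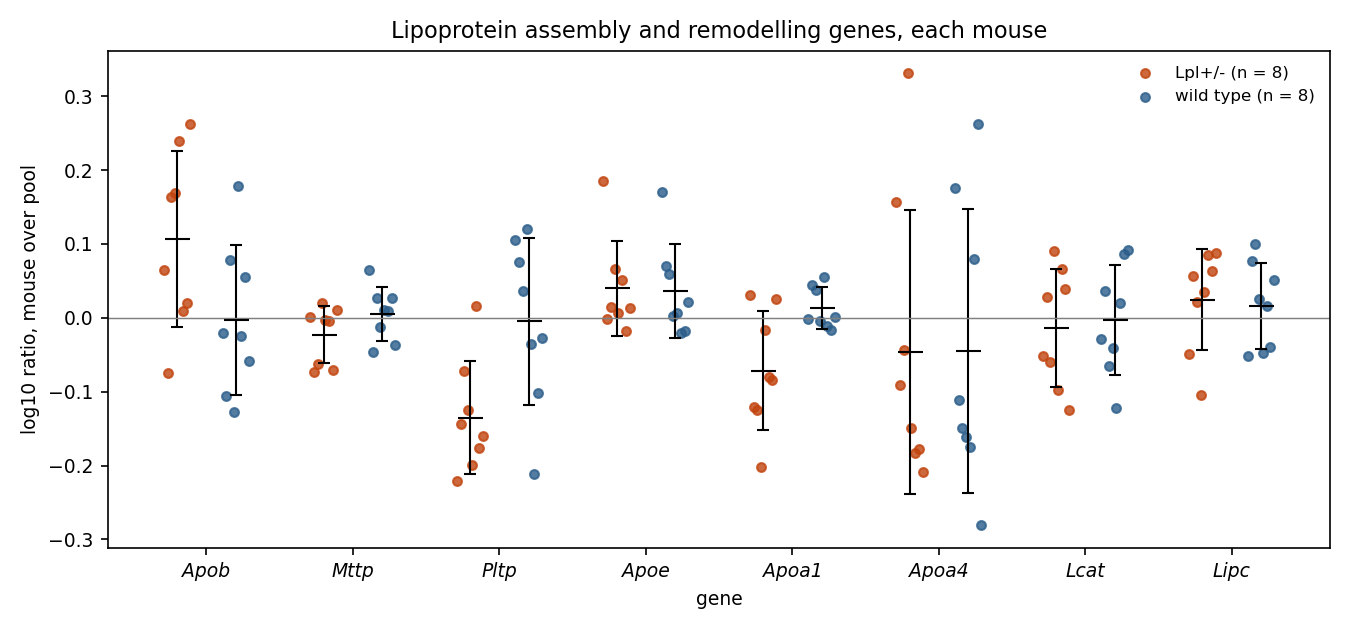
Log10 ratio of mouse over pool (vertical axis) for each of the 8 genes, with 1 point per mouse (orange, 8 Lpl+/-; blue, 8 wild type) and bars for the mean and SD. The groups overlap for every gene, and Apoa4 has the widest spread, from -0.281 to 0.331.

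Apob, the backbone of VLDL, ranged from -0.0745 in Lpl+/- 2 to 0.262 in Lpl+/- 8, with a median of 0.114, and in wild type livers from -0.127 to 0.179 with a median of -0.0224. Lpl+/- mice were the higher ones, 7 of 8 above the wild type median, and 2 of them, Lpl+/- 5 and 8, lay above every wild type mouse. The mean was 0.107 ± 0.12 in Lpl+/- and -0.00286 ± 0.102 in wild type livers (SD, n = 8 each). The difference of 0.11 (SE 0.052, 95% interval -0.000494 to 0.22) is a fold of 1.29 if the values are log10 and 1.08 if they are log2. It did not pass the test (limma unadjusted p = 0.0509, adjusted p = 0.836; exact two-sided permutation p = 0.0707).

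Mttp, the lipid-loading partner of Apob, varied least of the 8 genes. Its lowest, median and highest values were -0.0735, -0.0042 and 0.0201 in Lpl+/- mice, against -0.0468, 0.00955 and 0.0644 in wild type mice. The groups overlapped, with 3 Lpl+/- mice below the whole wild type range. The difference was -0.028 (SE 0.0187, 95% interval -0.0676 to 0.0117; limma adjusted p = 0.836), so a fold below 0.856 or above 1.03 lay outside the interval.

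Among the apolipoproteins of HDL, Apoa1, the main structural protein of HDL and the activator of Lcat, ranged from -0.203 in Lpl+/- 4 to 0.0313 in Lpl+/- 1 with a median of -0.082. Wild type mice kept close to the pool, from -0.0162 to 0.0555. As many as 6 of 8 Lpl+/- mice lay below every wild type mouse, the last of them, Lpl+/- 5 at -0.0167, only just below wild type 8 at -0.0162. For 0.836% of all features at least 6 Lpl+/- mice lay beyond the wild type range on 1 side. Lpl+/- 1 and 8 lay within it. The mean was -0.0715 ± 0.0806 in Lpl+/- and 0.0135 ± 0.028 in wild type livers (SD, n = 8 each), a difference of -0.0849 (SE 0.0288, 95% interval -0.146 to -0.0241) or 0.822-fold. The unadjusted limma p was 0.00921 and the exact permutation p 0.0141, but over all features the adjusted p was 0.836.

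The spread of Apoa1 also differed in size between the groups, with an SD of 0.0806 in Lpl+/- and 0.028 in wild type livers. A limma test of the distance of each mouse from its group median gave a difference of 0.0397 (unadjusted p = 0.0409, adjusted p = 1.0), and 0 of 36824 features passed it, with 2.94% at an unadjusted p under 0.05. That test had little power after adjustment, since it recovered 0% of 200 simulated features whose SD differed 4-fold and 69.5% of them at an unadjusted p under 0.05. No other of the 8 genes had an unadjusted p under 0.05 in it. Hepatocytes are the cells that make Apoa1 in the liver. The mean of 13 measured hepatocyte markers of 16 listed lay between -0.0888 and -0.0107 in Lpl+/- and between -0.0327 and 0.0136 in wild type livers, and across the 16 mice its r with Apoa1 was 0.67 (permutation p = 0.0192, 0.205 after Benjamini-Hochberg adjustment over 32 relations; rho = 0.721, 0.217 after adjustment). The r was 0.752 within Lpl+/- and 0.332 within wild type mice, and 0.573 without Lpl+/- 4 and 6. Of the hepatocyte markers 6 passed in a fit on the acute phase genes described below, 3 upward and 3 downward. Their mean therefore does not measure hepatocyte content. The part of these markers in the Apoa1 difference was not tested.

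Apoa4, an apolipoprotein of chylomicrons and HDL that is made in gut and liver, showed the reverse picture, with a wide spread and means that lay close together. It ranged from -0.208 to 0.331 in Lpl+/- mice (median -0.12) and from -0.281 to 0.262 in wild type mice (median -0.13). In each genotype a few mice stood high, Lpl+/- 4 and 1 at 0.331 and 0.156, and wild type 8, 1 and 7 at 0.262, 0.176 and 0.0793, while the others were at -0.0435 or lower. The within-group SD of 0.192 was above that of 98.1% of all features, and the highest mouse was 4.09-fold over the lowest. The difference between genotypes was -0.000812 (SE 0.0894; limma adjusted p = 1.0), with a 95% interval of 0.645-fold to 1.54-fold, the widest of the 8 genes.

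Apoe, the ligand for remnant uptake, had lowest, median and highest values of -0.0176, 0.014 and 0.185 in Lpl+/- mice, against -0.0207, 0.0145 and 0.17 in wild type mice. The groups lay over each other, and in each of them mouse 1 was the highest. The difference was 0.00315 (SE 0.0304, 95% interval -0.0613 to 0.0676; limma adjusted p = 0.989).

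Other apolipoproteins and neighbours of these genes gave no call either. Of 14 measured other apolipoproteins and lipoprotein-bound proteins of 15 listed, 6 had the higher and 8 the lower mean in Lpl+/- livers, and 0 passed the test. Apod, a lipocalin carried on HDL, had the smallest p of this list, at -0.0158 ± 0.0302 in Lpl+/- and 0.0285 ± 0.0301 in wild type livers (SD, n = 8 each; 0.903-fold, limma adjusted p = 0.836). Next came Apoc2, the activator of lipoprotein lipase, at 1.09-fold, and Saa4, a constitutive serum amyloid A of HDL, at 1.14-fold (limma adjusted p = 0.836 each). Beside Apoa1 and Apoa4 on chromosome 9, the difference was -0.00741 for Apoc3, an inhibitor of triglyceride clearance, and -0.0546 for Apoa5, a stimulator of it (limma adjusted p = 0.961 and 0.836). Beside Apoe it was -0.0113 for Apoc1 and -0.009 for Apoc4 (limma adjusted p = 0.953 and 0.929).

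**Figure D2:**
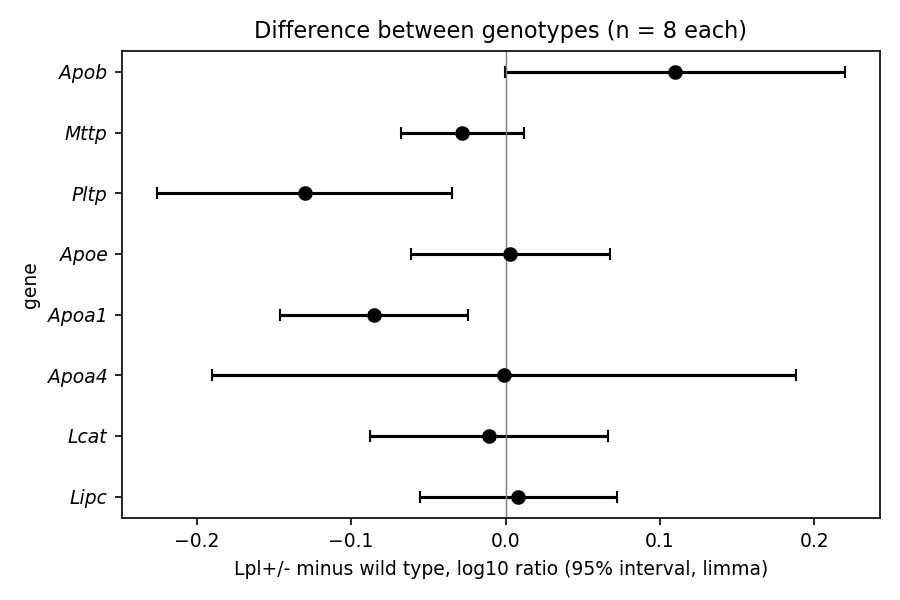
Difference of the mean log10 ratio, Lpl+/- minus wild type (horizontal axis), for the 8 genes (vertical axis), with 95% intervals from the limma fit, n = 8 mice each. The intervals of Pltp and Apoa1 lie below 0, and those of the other genes include 0. None of the 8 adjusted p values is under 0.05.

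Of the enzymes and transfer proteins of plasma, Pltp, which moves phospholipid between particles and into HDL, had the largest difference. It ranged from -0.22 in Lpl+/- 1 to 0.0155 in Lpl+/- 6 with a median of -0.151, and in wild type mice from -0.212 in wild type 7 to 0.121 in wild type 5 with a median of 0.00475. All Lpl+/- mice but 1 lay below the wild type median, yet the ranges overlapped, with Lpl+/- 6 above wild type 6, 7, 8 and 9. The mean was -0.135 ± 0.0762 in Lpl+/- and -0.00471 ± 0.113 in wild type livers (SD, n = 8 each), a difference of -0.13 (SE 0.0452, 95% interval -0.226 to -0.0345). The fold was 0.741, or 0.914 if the values are log2 (limma unadjusted p = 0.0107, adjusted p = 0.836; exact permutation p = 0.0207).

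Set against the pool instead of against the wild type mice, 3 of the 8 genes had an unadjusted limma p under 0.05 in Lpl+/- livers, where 11.3% of all features did. The comparison shares the pool with every other value and repeats the same Lpl+/- arrays. Pltp had the smallest p (0.000328, limma adjusted p = 0.165; 95% interval -0.19 to -0.0802), and 7 of 8 Lpl+/- mice were below 0, while 13% of all features had at least 7 of these mice on 1 side of 0. Apob had an unadjusted limma p of 0.0186 and Apoa1 of 0.0206 (adjusted p = 0.363 and 0.368). Of the 8 genes 0 passed after adjustment, beside 0.0625% of all features, and without Lpl+/- 6 Pltp did (limma adjusted p = 0.0323). In wild type livers 0 of the 8 genes reached an unadjusted limma p under 0.05 against the pool, beside 2.36% of all features. The sample labels do not say whether the pool was made from these same wild type mice. If it was, their mean would lie near 0 by design, so the shares of the genotypes against the pool cannot be compared.

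Pltp was also set beside genes of the circadian clock. A clock score was the mean of Arntl and Npas2 minus the mean of Dbp, Per2, Per3 and Nr1d1. It sorted the mice into 2 sets with a wide gap, and both genotypes stood on either side. Of the genes in the score, Arntl, Dbp, Per2 and Per3 followed it, with slopes on it of 1.22, -0.566, -0.633 and -0.338. Npas2 and Nr1d1 did not, with slopes of 0.019 and 0.00422 (limma adjusted p = 0.929 and 0.995). The genes are part of the score, so these slopes are a description. Among the 7 mice below the gap, Pltp lay between -0.22 and -0.0713 in 3 Lpl+/- mice (mean -0.145) and between 0.0364 and 0.121 in 4 wild type mice (mean 0.0845), with no overlap, as for 7.76% of all features in these 7 mice. Among the 9 mice above it, Pltp lay between -0.2 and 0.0155 in 5 Lpl+/- mice (mean -0.129) and between -0.212 and -0.0269 in 4 wild type mice (mean -0.0939), and the groups overlapped. This split was chosen after the values had been seen. The test of the difference, a clock score by genotype term, gave 0.331 (SE 0.128; limma unadjusted p = 0.021, adjusted p = 0.998), while 4.39% of all features had an unadjusted p under 0.05. With the clock score as a covariate the Pltp difference was -0.12 (limma adjusted p = 0.809). The sources used here give no time of day. Of the wild type mice above the gap, 6, 7 and 8 also had the highest wild type macrophage marker means (0.119, 0.0243 and 0.1197, the others -0.0655 or lower). With the acute phase mean described below, Pltp had r = -0.45 (permutation p = 0.0785, adjusted p = 0.313). By rank, rho was -0.574 (permutation p = 0.0263, adjusted p = 0.352). This r was -0.741 within wild type and -0.174 within Lpl+/- mice. The part of each measure in the Pltp values was not tested.

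**Figure D3:**
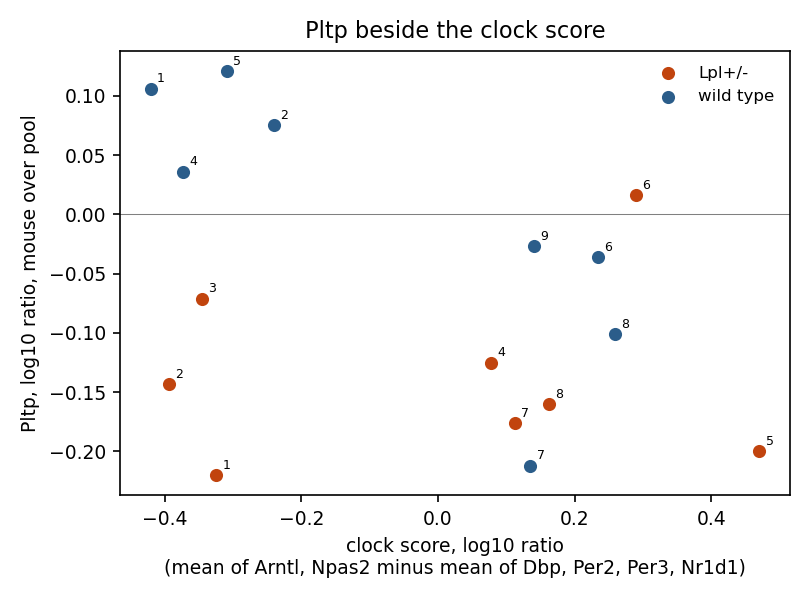
Log10 ratio of Pltp (vertical axis) against the clock score (horizontal axis, log10), 1 numbered point per mouse (orange, Lpl+/-; blue, wild type). On the left the 4 wild type mice lie above 0 and the 3 Lpl+/- mice below it, while on the right the genotypes overlap.

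Lcat, which esterifies cholesterol on HDL, ranged from -0.124 to 0.0905 in Lpl+/- mice (median -0.0118), against -0.121 to 0.0924 in wild type mice (median -0.0046). The ranges were nearly the same. The difference was -0.0109 (SE 0.0365, 95% interval -0.0881 to 0.0663; limma adjusted p = 0.961). Lcat lies on chromosome 8, as does Lpl, at a distance of 37.0 Mb.

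Lipc, the hepatic lipase that trims HDL and remnants, ranged from -0.104 to 0.0884 in Lpl+/- mice (median 0.0461), against -0.0519 to 0.0995 in wild type mice (median 0.0209). Most mice of either genotype lay above 0, and Lpl+/- 1 and 4 with wild type 1, 6 and 8 formed a low set at -0.0391 or below. The difference was 0.0082 (SE 0.0301, 95% interval -0.0555 to 0.0719; limma adjusted p = 0.964). For the lipases and remodelling enzymes a fold outside 0.816 to 1.16 for Lcat and 0.88 to 1.18 for Lipc lay beyond the interval.

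Around these genes, no gene of the pathway lists but Lpl passed the test between genotypes, which does not show that the means were equal. Of 19 measured genes of VLDL assembly and secretion, of 24 listed, 10 had the higher and 9 the lower mean in Lpl+/- livers and 0 passed, with a median difference of 0.00315. Mia2, a cargo receptor for large particles at the endoplasmic reticulum, had 0.0882 ± 0.0849 in Lpl+/- and 0.00243 ± 0.0935 in wild type livers (SD, n = 8 each; 1.22-fold, limma adjusted p = 0.836). Lpgat1, a phospholipid acyltransferase, was at 1.25-fold, and Sort1, a sorting receptor that binds apolipoprotein B, at 0.909-fold (limma adjusted p = 0.836 each). Of 17 measured plasma remodelling and HDL genes of 20 listed, 11 were higher and 6 lower, and 1 passed, Lpl. Pla2g7, the plasma platelet-activating factor acetylhydrolase, was at 0.81-fold, and Scarb1, the HDL receptor, at 1.15-fold (limma adjusted p = 0.836 each).

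Of 6 measured lipoprotein receptor genes of 9 listed, 4 were higher and 2 lower, and 0 passed. Cd36, a fatty acid transporter and scavenger receptor, had 0.102 ± 0.082 in Lpl+/- and -0.0188 ± 0.1 in wild type livers (SD, n = 8 each; 1.32-fold), with an unadjusted limma p of 0.0124 and an adjusted p of 0.836. Lrp1, the remnant receptor, was at 1.18-fold (limma adjusted p = 0.836) and Mylip, which marks the LDL receptor for degradation, at 0.931-fold (limma adjusted p = 0.845). Of 22 measured transcription regulators of 23 listed, 9 were higher and 13 lower and 0 passed. Ppargc1a, a coactivator of fasting metabolism, was at 0.845-fold, Rxra, the partner of the lipid-sensing nuclear receptors, at 0.93-fold, and Nr0b2, a repressor of bile acid synthesis, at 1.16-fold (limma adjusted p = 0.836 each).

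Markers of other cells did not pass in any list. Of 18 macrophage markers 3 had the higher and 15 the lower mean in Lpl+/- livers, with list means of -0.146 to 0.102 in Lpl+/- and -0.147 to 0.12 in wild type mice. Of 13 measured hepatocyte markers 3 were higher and 10 lower. Tat, a liver enzyme of tyrosine breakdown, was at 0.703-fold with the smallest p of that list (limma adjusted p = 0.836). Of 9 measured intestine markers 3 were higher and 6 lower, and Sis, the sucrase of the gut brush border, was at 1.40-fold (limma adjusted p = 0.836). Endothelial markers split into 5 higher and 5 lower of 10, stellate cell markers into 2 and 7 of 9, pancreas markers into 6 and 3 of 9 and adipocyte markers into 6 and 3 of 9.

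Between mice of 1 genotype, 7 of the 8 genes varied more than the median feature, whose within-group SD was 0.0417. After Apoa4 came Apob with an SD of 0.111, above 93.4% of all features, and Pltp with 0.0965, above 90.5%. The SD was 0.0773 for Lcat, 0.064 for Apoe, 0.0633 for Lipc and 0.0603 for Apoa1, which placed these 4 genes between 72.6% and 84.1%. Mttp, with 0.0377, was the exception at 43.3%. The highest mouse was 2.45-fold over the lowest for Apob, 2.19-fold for Pltp and 1.37-fold for Mttp. A ratio on an array also carries the noise of its probe, whose size cannot be separated here.

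The 8 genes did not vary as 1 block. After removal of the genotype means, 13 of the 28 pairs had a positive and 15 a negative r across the 16 mice, with a median size of 0.279. Of the 28, 4 had a permutation p under 0.05 and 1 passed after Benjamini-Hochberg adjustment over the pairs by r, and 0 passed by rho. The pair that passed was Apoa4 with Lipc, at r = -0.795 (permutation p = 0.00076, adjusted p = 0.0213) and rho = -0.726 (permutation p = 0.00305, adjusted p = 0.0854). The 3 mice with the highest Apoa4, Lpl+/- 4, wild type 8 and wild type 1, were all in the low set of Lipc.

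Within Lpl+/- mice the r of Apoa4 with Lipc was -0.981 and within wild type mice -0.582 (n = 8 each). Without Lpl+/- 4 and wild type 8, the mice farthest from the median of Apoa4, it was -0.663. Among the 11 mice above the gap in Lipc it was -0.513 (rho = -0.527) with the genotype means kept, against -0.793 in all mice computed likewise. The 5 mice below the gap are too few for a value. A cut on Lipc narrows its range, which can itself make r smaller. How far the relation rests on the low set is therefore not settled. The adjusted p was above 0.05 without any 1 of Lpl+/- 1, 2, 4, 5, 6, 7 or 8 or wild type 1 or 8 (at most 0.127). Over all features, 0.334% had an r with Apoa4 of at least this size, and 0.274% had one with Lipc.

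**Figure D4:**
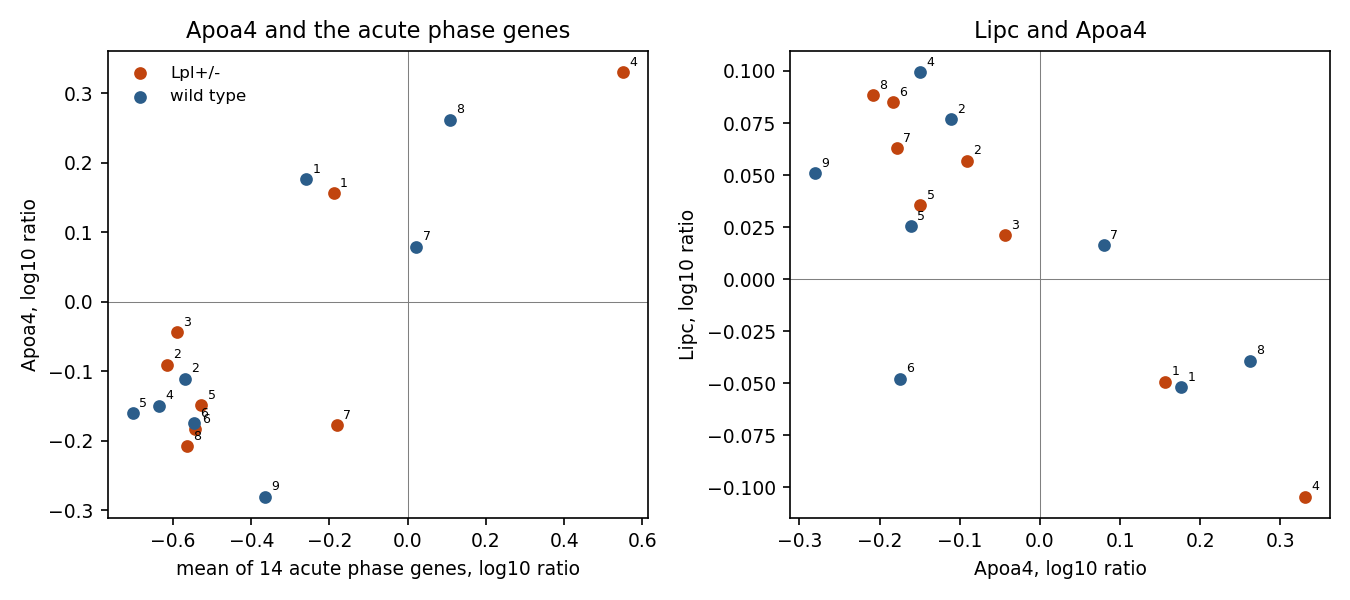
Left, Apoa4 (vertical axis) against the mean of 14 acute phase genes (horizontal axis), and right, Lipc (vertical axis) against Apoa4 (horizontal axis), all as log10 ratios, with 1 numbered point per mouse (orange, Lpl+/-; blue, wild type). Lpl+/- 4 and wild type 8 are highest for Apoa4 and for the acute phase mean, and Lpl+/- 4 is lowest for Lipc.

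Other pairs did not pass. Apoa1 and Lcat, the activator and its enzyme, had opposite values (r = -0.649, permutation p = 0.00833, adjusted p = 0.117; rho = -0.565, adjusted p = 0.336), with -0.751 within Lpl+/- and -0.583 within wild type mice and -0.608 without Lpl+/- 1 and 4. An r of at least this size was held by 15.5% of all features with Lcat and by 2.40% with Apoa1. Apob and Mttp, which act together in VLDL assembly, had r = 0.539 (permutation p = 0.0421, adjusted p = 0.287; rho = 0.618, adjusted p = 0.232), 0.58 within Lpl+/- and 0.49 within wild type mice, and 0.546 without Lpl+/- 8 and wild type 6. As large an r was held by 19.6% of all features with Apob and by 7.21% with Mttp. Apob and Lcat had r = -0.572 (permutation p = 0.0291, adjusted p = 0.272; rho = -0.521, adjusted p = 0.348), -0.639 within Lpl+/- and -0.489 within wild type mice, and -0.322 without Lpl+/- 8 and wild type 6. The share of all features with an r of this size was 16.3% with Apob and 23.8% with Lcat. Apoa1 and Apoa4, which share a gene cluster, had r = -0.405 (permutation p = 0.137, adjusted p = 0.435; rho = -0.479, adjusted p = 0.413), -0.415 within Lpl+/- and -0.551 within wild type mice. Here the share was 23.6% with Apoa1 and 20.2% with Apoa4.

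**Figure D5:**
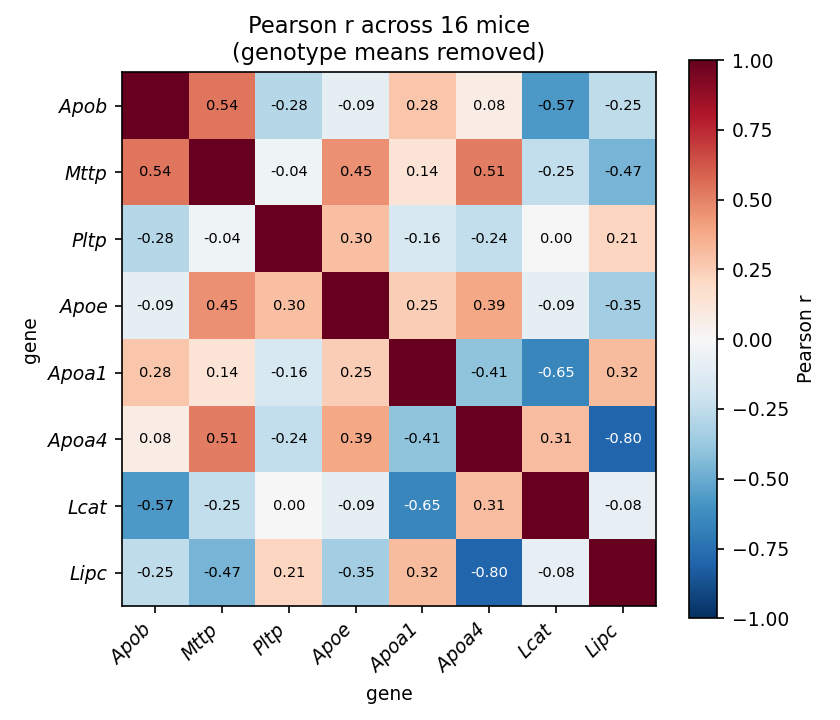
Pearson r across 16 mice after removal of the genotype means, for each pair of the 8 genes (rows and columns are genes; red positive, blue negative). Apoa4 with Lipc has the value farthest from 0, and the pairs hold about as many positive as negative values.

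Acute phase genes, such as Saa1, Orm2 and Hp, encode liver proteins that climb in inflammation, and they varied widely here in both genotypes. The mean of 14 of them ran from -0.615 to 0.551 in Lpl+/- and from -0.703 to 0.108 in wild type mice, with Lpl+/- 4 the highest and wild type 8 next. Apoa4 went with this mean (r = 0.80, permutation p = 0.00129, 0.0413 after adjustment over 32 relations), at 0.825 within Lpl+/- and 0.784 within wild type mice. By rank the relation did not pass (rho = 0.459, permutation p = 0.0871, adjusted p = 0.481), and without Lpl+/- 4 and wild type 8 the r was 0.555. The adjusted p was above 0.05 without Lpl+/- 1 or 4 or wild type 1, 7 or 8 (at most 0.177). No other relation of the 32 passed. Lipc had r = -0.69 with the acute phase mean (permutation p = 0.00673, adjusted p = 0.108; rho = -0.547, adjusted p = 0.352), -0.827 within Lpl+/- and -0.483 within wild type mice, and -0.403 without Lpl+/- 4 and wild type 8. The macrophage mean and the clock score fell into separate sets, so r is given only within sets of at least 6 mice, with the genotype means kept. For the 8 genes it lay between -0.454 and 0.559 with the macrophage mean (11 mice). With the clock score it lay between -0.404 and 0.395 (7 mice) and between -0.403 and 0.346 (9 mice).

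A limma fit over all features with genotype as a term, added after the data had been seen, gave Apoa4 a slope of 0.435 log10 units per unit of the acute phase mean (SE 0.084, 95% interval 0.256 to 0.613; adjusted p = 0.00766). It was the only 1 of the 8 genes to pass, where 4.48% of all features passed. The call held in 15 of 16 fits that left out 1 mouse each and was lost without Lpl+/- 4 (slope 0.444, limma adjusted p = 0.0802) or with the sign of wild type 8 turned (slope 0.343, limma adjusted p = 0.126). Lipc had a slope of -0.123 (SE 0.0346; limma adjusted p = 0.0561). The other genes had limma adjusted p values between 0.186 for Lcat and 0.874 for Apob.

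Genes were named here if they passed in this fit. Of the other apolipoproteins and lipoprotein-bound proteins, 6 of 14 did so. The slope was 0.252 for Apon, 0.203 for Saa4, 0.180 for Clu, 0.149 for Apom and 0.0849 for Apoc2, and -0.205 for Apoa2, the second protein of HDL (limma adjusted p between 0.000736 and 0.0475). Of the plasma remodelling genes, Pon1, the HDL paraoxonase, had a slope of -0.157 (limma adjusted p = 0.00752). In VLDL assembly, Surf4, a cargo receptor of the early secretory path, had 0.104 and Mia3, a partner in export of large cargo, -0.103 (limma adjusted p = 0.0184 and 0.00955). Of the receptors, Lrp1 had 0.197 and Vldlr, the VLDL receptor, -0.166 (limma adjusted p = 0.00327 and 0.0192). Among the regulators, Srebf1, which drives fatty acid synthesis genes, had -0.331 (limma adjusted p = 0.0274). The slopes of these listed genes are from the fit with all mice. Whether they pass without Lpl+/- 4, or with the sign of wild type 8 turned, where Apoa4 lost its call, was not tested.

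Markers of cell types passed in this fit as well. Of 13 measured hepatocyte markers 6 did, 3 upward and 3 downward (limma adjusted p between 0.000518 and 0.0362). The fibrinogen genes Fga, Fgb and Fgg had slopes of 0.444, 0.166 and 0.307. Alb (albumin), Ttr (transthyretin) and Hpd, an enzyme of tyrosine breakdown, had -0.506, -0.0878 and -0.137. The mean of the hepatocyte markers thus mixes genes that rose and fell with the acute phase mean, and it does not measure hepatocyte content. Of 9 measured stellate cell markers 4 did, the collagen genes Col1a1, Col1a2 and Col3a1 with 0.374, 0.0755 and 0.305, and Reln with -0.12 (limma adjusted p between 0.00409 and 0.013). Of 9 measured adipocyte markers 1 did, downward, and of the macrophage, endothelial, intestine and pancreas markers 0 did. Whether the marker slopes pass without Lpl+/- 4, or with the sign of wild type 8 turned, was not tested either. Apoa4 had r = -0.545 with the mean of the hepatocyte markers (permutation p = 0.0338, adjusted p = 0.217; rho = -0.535, adjusted p = 0.352), -0.578 within Lpl+/- and -0.541 within wild type mice, and -0.276 without Lpl+/- 4 and 6. The part of these markers in the slopes of Apoa4 and the other apolipoproteins was not tested.

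The features most like each gene across the mice are given as a description, by r after removal of the genotype means (n = 16). For Apob these were Nelfa (0.929), Dyrk1a (0.918) and Cd164 (0.913), and for Lcat AI837181 (0.945), Cpn1 (0.940) and Tmem248 (0.939). For Apoa4 they were Olfr1442 (0.944), Cyp2d40 (0.878) and 2610507B11Rik (0.876), and for Lipc Stard9 (0.901), Serpinb1a (0.893) and Cox4i1 (0.880). Apoa1 had Krtap8-1 (0.851), Zfyve28 (0.849) and Igfbp2 (0.840), and Pltp had Atp1b1 (0.855), Tanc1 (0.847) and Maoa (0.845). Mttp had Znhit3 (0.835), Oxsr1 (0.815) and Slc25a33 (0.811), and Apoe had Lancl1 (0.810), Rasa2 (0.806) and Kcna5 (0.792). The genes differed in how many such partners they had. Of 20550 other features with a symbol, Lcat had 302 with an r of at least 0.8 and 487 at -0.8 or below, and Apob 224 and 152, whereas Apoe had 2 and 2.

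Lcat and Apob followed the main axis of variation between the mice. Over all features, the first principal component of the values without genotype means took 25.7% of the variance, and its r was -0.877 with Lcat and 0.606 with Apob. The component with 9.82% had an r of 0.705 with Apoa4, -0.757 with Lipc, 0.559 with Mttp and 0.783 with the acute phase mean. The genes are part of the features that define the components, so these values are a description.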

How the data were processed

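RNA from 16 mouse livers, each against a pool of 9 wild type livers, was measured on 2-colour arrays. The deposited values were read as log10 ratios of mouse and pool. The sources used here do not give the authors' log base, background correction, normalization, centring or joining of swapped dyes. Values end at 2 and -2 (0 to 88 per array), which in log10 is a 100-fold limit, and scale and centring were kept as deposited. Per the labels' protocols, extraction used spin columns and DNase, and the dyes were Cy3 and Cy5.

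The platform annotation named 1 gene symbol for 23283 of 39556 probes, several for 0 and none for 16273. Averaging probes per symbol left 36824 features; 5952 symbols were updated through a RefSeq table (GRCm38.p6). Depth does not apply to arrays, and the number of mice limits the precision.

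Groups were compared with limma 3.58.1 (R 4.3.3; lmFit, eBayes, two-sided, Benjamini-Hochberg over all features, threshold 0.05, no block), and each gene also by an exact permutation test over 12870 assignments. Correlations used 100000 permutations within genotype (scipy 1.17.1). Gaps were searched only where at least 3 mice lay on either side. A measure was treated as falling into separate sets where the widest such gap took more than 0.25 of its range. For that reason no correlation over all mice is given with the clock and macrophage means. Lipc also met this rule (0.272), but its r over all mice is given. The acute phase mean did not meet it (0.163), although Lpl+/- 4 at 0.551 lay far above the next mouse, wild type 8 at 0.108. The clock score split, the acute phase slope and further alternatives were added after seeing the data. Same-numbered mice of the 2 groups were not paired (correlations of their deviations between -0.245 and 0.381). On simulated arrays with 8 mice a group, differences of 0.1, 0.2 and 0.3 were recovered in 62.7%, 91% and 100% of 67, 67 and 66 changed features. These were drawn from all features with a within-group SD under 0.124, where the median over all features was 0.0417. The shares therefore do not give the power for the 7 of the 8 genes that varied more than the median feature. Apoa4, with an SD of 0.192, lay outside the simulated range.

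Named genes were the 8 genes and Lpl, of each list every gene past the threshold or up to 3 with the smallest p, the 3 features most like each gene, and, for the acute phase slope, the genes of the lipoprotein, hepatocyte and stellate lists past the threshold; chromosomal neighbours were added for their place. The genes and lists were chosen with earlier results of these data known. Promoter windows are from RefSeq; all 8 genes were in the table.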

Additional observations from a re-analysis of the deposited data

Results flagged for a closer look

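Apoe in Lpl+/- 1 was 0.185, far above the next Lpl+/- mouse at 0.0661, and the gap took 0.587 of the range of its group. Chance alone flags about 1 in 20 groups, and 1 of 16 groups tested was set apart in this way. Wild type 1 stood similarly high for Apoe, at 0.17 above the next wild type mouse at 0.0706, but was not flagged.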

How the results depend on the processing

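None of the 8 genes passed between genotypes under the 32 alternatives (Mttp 31, as it fell out of the filter on spread), and Apob, Mttp, Pltp and Apoa1 kept their direction in all. With 1 mouse left out the difference was 0.0873 to 0.136 for Apob, -0.0354 to -0.0195 for Mttp, -0.16 to -0.112 for Pltp and -0.0996 to -0.0662 for Apoa1. Differences near 0 turned over. Leaving out 1 mouse gave -0.0176 to 0.0222 for Apoe, -0.0546 to 0.0431 for Apoa4, -0.0279 to 0.00493 for Lcat and -0.00154 to 0.0266 for Lipc. With the sign of wild type 8 turned they were -0.00137 for Apoe, 0.0648 for Apoa4, 0.0106 for Lcat and -0.00157 for Lipc, and with both signs turned -0.00085 for Apoe, 0.0245 for Apoa4 and 0.000462 for Lcat. Apoa4 was 0.00015 after centring, 0.0062 with the clock score as a covariate and 0.011 without Lpl+/- 3, Lpl+/- 8 and wild type 4, whose arrays held most values at 2 or -2, where Lcat was 0.00634. With the replicate number as a block over 7 pairs, 0 of the 8 genes passed, and Lcat was 0.00927, as in the same 14 arrays without the block. The call for Lpl was lost with quantile normalization, a robust trended variance, the block, those 14 arrays and without the same 3 mice (limma adjusted p = 0.615, 0.849, 0.235, 0.0523 and 0.121), and without Lpl+/- 2 (0.0577) or wild type 8 (0.0526), while the Lpl difference stayed between -0.436 and -0.343 in these fits. The count against the pool in Lpl+/- livers was 0 to 1 with 1 mouse left out, that of acute phase slopes 0 to 2, that of passing pairs 0 to 2 and that of passing list relations 0 to 2. The slope count was 0 with wild type 8 turned. Passing pairs were 0 with quantile normalization (Apoa4 with Lipc at r = -0.674, adjusted p = 0.0511) and 0 with wild type 8 turned (r = -0.779, adjusted p = 0.0504), and over single mice left out r was -0.905 to -0.696 (adjusted p 0.0014 to 0.127). List relations were 0 with wild type 8 turned (Apoa4 with the acute phase mean at r = 0.654, adjusted p = 0.266), and with 1 mouse left out r was 0.69 to 0.855 (adjusted p 0.0144 to 0.177). Exact permutation p values under 0.05 were 2 as deposited, 1 with wild type 5 turned and 3 with wild type 8 turned. Where a call or a direction moved, the cause was not tested.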
